A study of Mus musculus with 6 samples.

Results

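The genes described here encode the subunits of the 5 complexes of oxidative phosphorylation in the inner mitochondrial membrane. They were chosen by symbol from the annotation of the array: Nduf genes of the A, B, C, S and V series for complex I, Sdha to Sdhd for complex II, Uqcr genes for complex III, Cox4 to Cox8 genes for complex IV and Atp5 genes for complex V. The rule used no measured value. It gave 78 of the 12393 genes that had a probe set of their own, with 33 in complex I, 4 in complex II, 8 in complex III, 16 in complex IV and 17 in complex V. All are nuclear genes, and the subunits encoded in mitochondrial DNA were not analysed here.

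Transcripts were measured on Affymetrix arrays in 6 lines of mouse embryo fibroblasts, which are fibroblasts grown from embryos, with 1 array per line. The 3 chromosomally unstable lines were 2 BubR1 H/H lines, labelled as hypomorphic for BubR1, a protein of the mitotic spindle checkpoint, and wild type for CDC20, and 1 CDC20 AAA/AAA line, labelled as hypomorphic for CDC20, which starts the exit from mitosis, and wild type for BubR1. The 3 stable lines, 2 BubR1 +/+ and 1 CDC20 +/+, were wild type for both. All lines were grown for 2 passages in serum-containing medium with added glutamine. Each title starts with 9515, 9938 or 10074, and every number is shared by an unstable and a stable line, here called a pair. Pair 10074 holds the CDC20 lines. The CDC20 allele is therefore represented by 1 line. Embryo age and strain are not given in the sources used here, nor is the origin of the lines from separate embryos, so p-values speak only of the spread among the 6.

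Complex I oxidises NADH and complex II oxidises succinate, and both pass electrons to ubiquinone. Complex III passes them on to cytochrome c and complex IV to oxygen, and complexes I, III and IV pump protons while they do so. Complex V, the ATP synthase, lets the protons flow back and makes ATP. Most subunits have 1 gene expressed in nearly all tissues, but several subunits of complex IV have a second gene for heart and skeletal muscle, lung or testis. Cultured fibroblasts obtain ATP from both glycolysis and respiration.

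Bub1b, the gene of BubR1, measured 7.81, 8.51 and 7.61 on the log2 scale in the stable lines of pairs 9515, 9938 and 10074 and 6.14, 6.43 and 7.00 in the unstable ones, lower in each pair. Cdc20 measured 10.84, 11.15 and 10.83 against 10.74, 10.34 and 10.03, and the labels do not say whether the CDC20 allele alters its transcript level. Both lines of pair 9938 had high Xist, at 10.70 and 11.16, and the remaining 4 lay at 2.24 to 2.94, so pair 9938 showed the female pattern. All 12 fibroblast markers were above a log2 value of 4 in every line, with a summed signal of 15.91 to 16.07 in stable and 15.94 to 16.01 in unstable lines. Macrophage and leukocyte markers, 11 on the array, varied more. Their summed signal in pairs 9515, 9938 and 10074 was 12.05, 14.21 and 14.29 in stable and 11.95, 14.27 and 13.39 in unstable lines. Of the 11, Itgam was below 4 in every line. Of 12 muscle markers 8, including Myod1, Myog, Ckm and Actn2, were below 4 in every line, as were all 6 testis markers. Of 9 adipocyte markers 4 were below 4 in every line, among them Ucp1 and Adipoq, and 5 were above. Of these, Pparg and Cebpa were lower in the unstable line of all 3 pairs, with differences of -0.67 and -0.60 that did not pass, and Fabp4, Lpl and Dio2 had mixed signs. The summed adipocyte signal was 10.43 to 11.28 in stable and 10.49 to 10.76 in unstable lines. The part of these markers in the subunit values was not tested. Arrays of bulk cultures cannot tell fewer cells of a type from less RNA per cell.

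The subunit transcripts differed little between unstable and stable lines, and none passed the test. Of the 78 genes, 75 reached a log2 value of 4 on at least 3 arrays and were tested, and each of these did so on all 6. The other 3, Cox4i2, Cox8b and Cox8c, were below 4 on all 6. The median difference over the 75 was -0.023 on the log2 scale, beside -0.009 for all 8382 genes tested. Within pairs 9515, 9938 and 10074 the medians were -0.011, -0.018 and -0.063, beside 0.001, -0.003 and -0.027 for all genes. The group difference was under 0.1 in either direction for 58 of the 75 subunit genes, or 77.3%, and for 47.8% of all genes tested. Among genes with a mean level of at least 10, where values are less noisy, these shares were 85.5% of 62 subunit genes and 63.5% of 2718 genes. Cox6b2 was the 1 subunit gene with a difference over 0.5, a size that 5% of all genes passed.

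By limma over all genes, 0 of the 75 had an adjusted p under 0.05, where 0% of all genes had (smallest adjusted p = 0.999 by limma). At an unadjusted p under 0.05 there was 1, Cox6a2, where 4.28% of all genes had such a p. Blocking on the pair gave 0 and 1 again, beside 0% and 12.2% of all genes, and the smallest adjusted p among the subunit genes was 0.369 by limma. The precision allowed a bound. The 95% confidence interval of the difference lay within -1 and 1, that is within a doubling in either direction, for 74 of the 75 and for 87.3% of all genes. Its median distance to each side was 0.292 for the subunit genes. Differences smaller than this could not be told from the spread between lines.

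**Figure D1:**
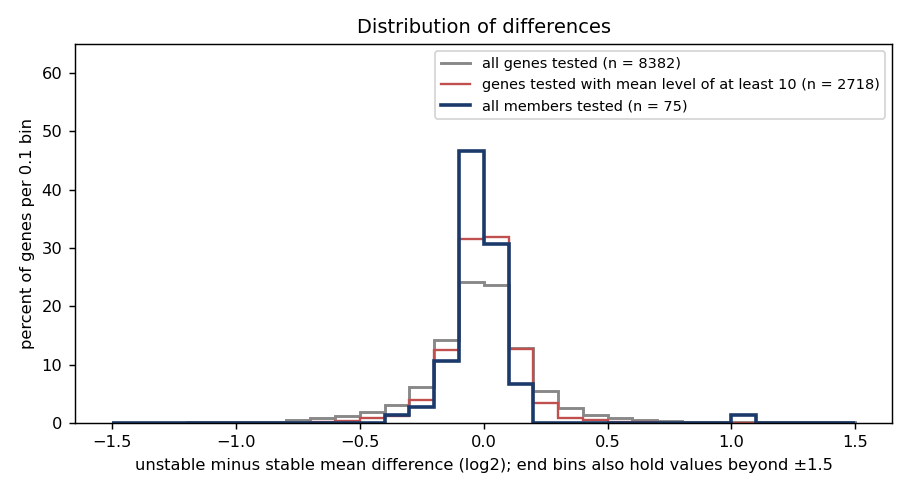
Unstable minus stable difference of group means on the log2 scale (x axis) against the percent of genes per bin of 0.1 (y axis) for the 75 subunit genes, all 8382 genes tested and the 2718 with a mean level of at least 10. The subunit genes lie close to 0, with 77.3% within 0.1, and the bin above 1 holds Cox6b2.

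Most members had mixed signs over the pairs. Of the 75, 14 were lower in the unstable line of all 3 pairs and 6 were higher in all 3. These are 18.7% and 8% of the subunit genes, beside 19.3% and 16.9% of all genes tested. No line of one group overlapped the other group for 7 of the 75. Ndufs8, Sdha, Sdhb, Cox6a2 and Cox7a2 were lower in every unstable line than in every stable line, where 6.41% of all genes were, and Ndufv3 and Cox4i1 were higher, where 3.54% of all genes were. Apart from Cox6a2 these genes differed by 0.14 or less.

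**Figure D2:**
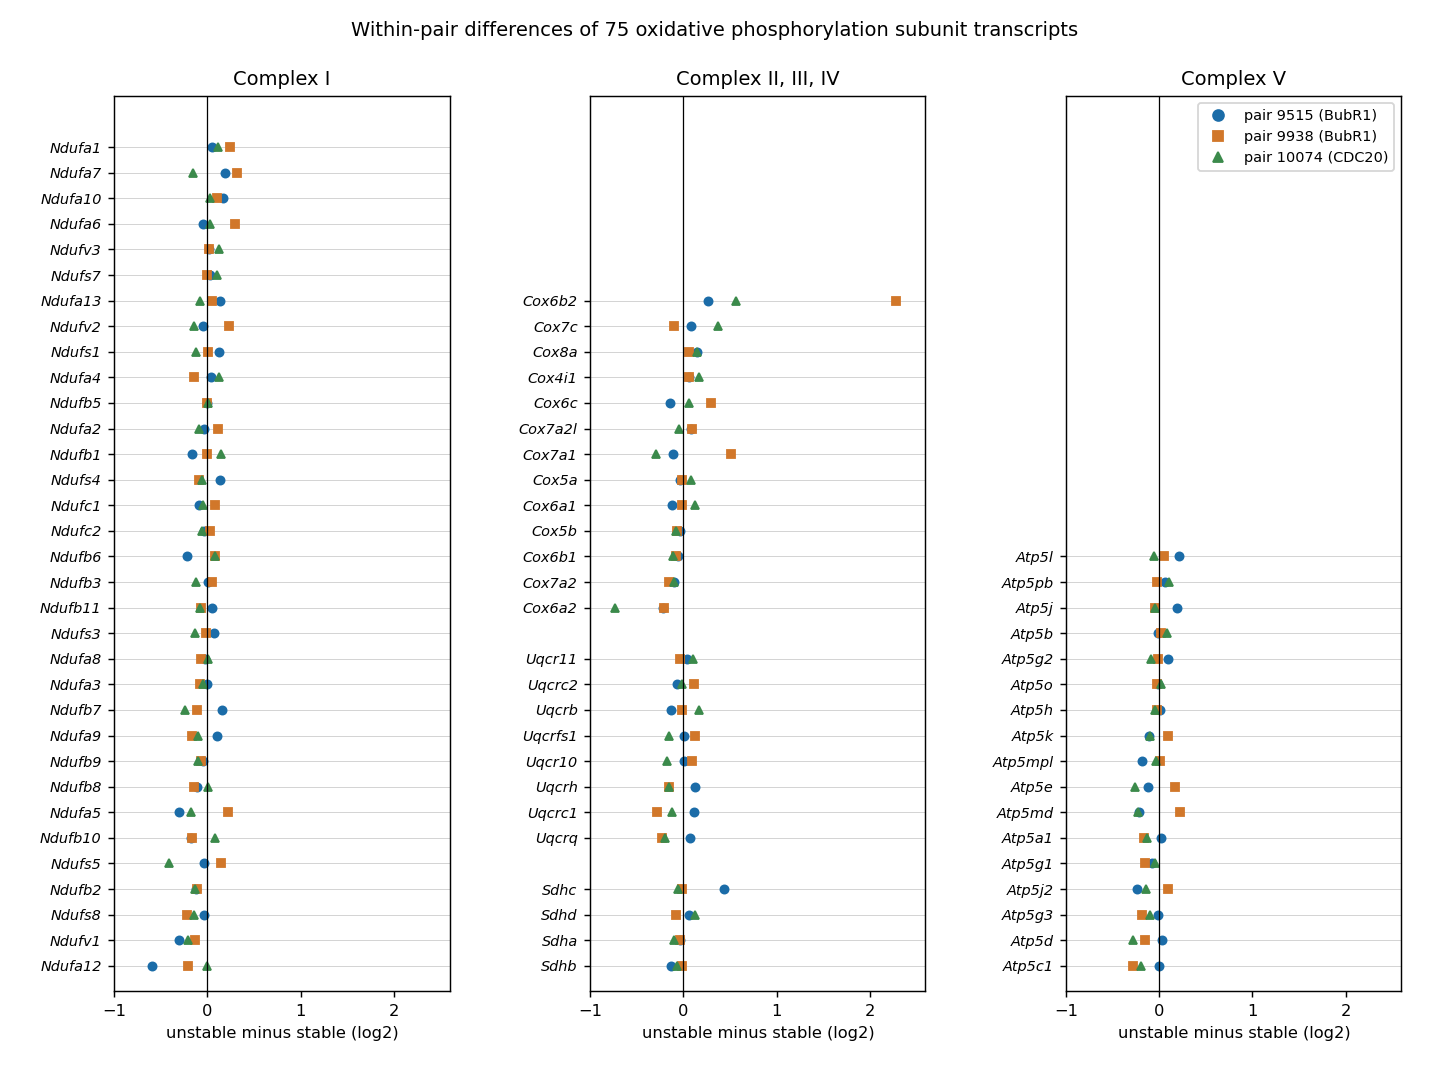
Unstable minus stable difference (x axis, log2) within pairs 9515, 9938 and 10074 for each of the 75 tested subunit genes (rows), by complex and ordered by the group difference. The point far to the right is Cox6b2 in pair 9938, where the unstable line was 4.87-fold higher.

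Complex I, the entry point for NADH electrons, had 33 members, all tested. Their median difference was -0.023, with pair medians of -0.026, -0.009 and -0.063, and the extremes were -0.27 and 0.13. Of these, 22 were lower and 11 higher over the group means, 5 were lower in all 3 pairs and 3 higher in all 3. The 6 members on the list of core subunits, Ndufs1, Ndufs3, Ndufs7, Ndufs8, Ndufv1 and Ndufv2, had a median of -0.012 and the 27 others one of -0.023.

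Ndufv1, which encodes the subunit that binds FMN and NADH, measured 10.22, 9.92 and 10.38 in the stable lines of pairs 9515, 9938 and 10074 and 9.90, 9.79 and 10.17 in the unstable ones. Each unstable line was below its stable partner, but the groups overlapped. The difference was -0.22 (SE 0.16, 95% interval -0.62 to 0.18), with adjusted p = 0.999 by limma and 0.412 with the pair as a block. Its 2 other probe sets differed by -0.08 and -0.03, so the size rests on the brightest one. Ndufs8, which carries iron-sulfur clusters of the ubiquinone branch, measured 10.48, 10.59 and 10.62 in stable and 10.44, 10.37 and 10.47 in unstable lines. Its difference was -0.14 (SE 0.09), and its 6 probe sets ranged from -0.17 to 0.06, the only member with probe sets above 4 that lay 0.2 or more apart.

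Ndufa12, an accessory subunit, had the lowest difference in complex I, at -0.27 (SE 0.16, 95% interval -0.67 to 0.13). It measured 12.51, 12.44 and 12.03 in stable and 11.91, 12.23 and 12.03 in unstable lines. The difference was -0.60 in pair 9515, -0.21 in pair 9938 and 0.00 in pair 10074, so it came from the BubR1 pairs. Over the BubR1 lines alone it was -0.41 (unadjusted p = 0.0614 by limma in the fit over all genes). The CDC20 effect minus the BubR1 effect was 0.41, with an interval of -0.35 to 1.17, and did not pass (unadjusted p = 0.201 by limma). Its 4 probe sets, 1 of which was below 4, differed by -0.27 to -0.39.

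In the other direction, Ndufa1, an X-linked subunit gene needed for assembly of the complex, measured 10.54, 10.43 and 10.68 in stable and 10.59, 10.66 and 10.79 in unstable lines. Its difference of 0.13 (SE 0.11) was largest in pair 9938, at 0.24. Ndufa10 differed by 0.10, with pair differences of 0.17, 0.10 and 0.03. By its chosen probe set, Ndufa7 differed by 0.12, from 0.19 and 0.32 in the BubR1 pairs and -0.16 in the CDC20 pair. Ndufb2 was lower by like amounts in each pair, at -0.12, -0.11 and -0.13, although its second probe set differed by 0.02. Ndufa5 and Ndufs5 had wide pair differences of mixed sign, from -0.31 to 0.22 and from -0.41 to 0.14. Ndufa4, now often counted with complex IV, differed by 0.00, with pair differences of 0.04, -0.15 and 0.12. Ndufb5 was the steadiest of all members by the chosen probe sets and stayed within 0.02 over the 6 lines. Its second probe set ran from 9.49 to 9.66. None of these passed, at adjusted p = 0.999 or above by limma.

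Complex II, which is also the succinate dehydrogenase of the citric acid cycle and is encoded wholly in the nucleus, had 4 members. Sdha, the flavoprotein, measured 11.79, 11.80 and 11.83 in stable and 11.75, 11.76 and 11.73 in unstable lines of pairs 9515, 9938 and 10074, a difference of -0.06 (SE 0.08). Sdhb, the iron-sulfur subunit, measured 10.07, 9.95 and 10.01 against 9.94, 9.92 and 9.93, a difference of -0.08 (SE 0.08). For both the groups did not overlap, but the gaps were at most a few hundredths of a log2 unit. The lowest stable and highest unstable values were 11.79 and 11.76 for Sdha and 9.95 and 9.94 for Sdhb. The second probe set of Sdha differed by 0.07, in the other direction. Of the membrane anchors, Sdhc measured 9.59, 9.90 and 10.18 in stable and 10.03, 9.90 and 10.11 in unstable lines. It was 0.44 higher in pair 9515 and within 0.1 of 0 in the others, for a difference of 0.12 (SE 0.17). Sdhd differed by 0.03, with -0.08 by its second probe set. The median of the 4 was -0.014, and pair medians were 0.008, -0.033 and -0.069.

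Complex III, the cytochrome bc1 complex, had 8 members with a median of -0.017 and extremes of -0.12 and 0.03, and no member with 1 sign in all 3 pairs. The core protein gene Uqcrc1 measured 9.74, 10.10 and 10.05 in stable and 9.86, 9.82 and 9.93 in unstable lines, for a difference of -0.10 (SE 0.12). Uqcrq differed by -0.12 (SE 0.20) and Uqcrh, the hinge protein, by -0.06 (SE 0.10). Uqcrb, Uqcrc2 and Uqcr11 differed by 0.01, 0.01 and 0.03. Pair medians of the complex were 0.029, -0.028 and -0.136.

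Complex V, the ATP synthase, had 17 members, of which 13 were lower and 4 higher over the group means. The median was -0.070, the lowest of the 5 complexes, with pair medians of -0.010, -0.031 and -0.095 and extremes of -0.16 and 0.07. The size of this median turned on several lines. Without pair 10074 it was -0.013, without the stable line of that pair 0.016 and without its unstable line -0.115. Without the unstable line of pair 9515 or 9938 it was -0.022 or -0.024. Atp5c1, the central stalk subunit gamma, had the lowest difference. The stable lines had a mean of 12.30 ± 0.13 and the unstable lines one of 12.14 ± 0.13 (SD, n = 3 each). It was lower by 0.28 in pair 9938 and by 0.20 in pair 10074, with almost no difference in pair 9515 (difference -0.16, SE 0.11). Its other probe set differed by -0.04. The 5 genes of the catalytic head and stalk, Atp5a1, Atp5b, Atp5c1, Atp5d and Atp5e, had a median of -0.089, and the 12 others one of -0.033. Atp5a1, the alpha subunit, differed by -0.09 (SE 0.10) and Atp5b, the catalytic beta subunit, by 0.03 (SE 0.10). The highest values were Atp5l at 0.07 and Atp5pb, which encodes a subunit of the peripheral stalk, at 0.04.

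The c subunit of the rotor ring is encoded by 3 genes, whose differences lay between -0.10 and 0. Atp5g1 measured 10.80, 10.96 and 11.12 in stable and 10.73, 10.81 and 11.07 in unstable lines, with a difference of -0.09 (SE 0.14). Atp5g3 measured 12.50, 12.54 and 12.78 against 12.48, 12.34 and 12.68, a difference of -0.10 (SE 0.13). Atp5g2 measured 9.98, 10.07 and 10.28 against 10.07, 10.06 and 10.18. Its pair differences were 0.09, -0.01 and -0.09, which cancel. All 3 genes were highest in the stable line of pair 10074.

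Complex IV, cytochrome c oxidase, had the widest spread of differences, set by tissue-restricted isoform genes. Of its 16 members 13 were tested, with a median difference of 0.036 and pair medians of -0.043, -0.009 and 0.063. The extremes, -0.39 and 1.04, were both isoform genes. Most of the ubiquitous genes varied little over the lines, with Cox6c and Cox7c as exceptions. Cox6c had pair differences of -0.14, 0.30 and 0.06, and Cox7c of 0.08, -0.10 and 0.37. The second probe set of Cox6c gave -0.08, 0.10 and -0.10. That of Cox7c, near the floor at a mean level of 4.43, gave 0.21, 0.09 and 0.08. The wider differences of both genes thus rest on the chosen probe set. Cox4i1 measured 12.33, 12.32 and 12.32 in stable and 12.39, 12.38 and 12.49 in unstable lines, so that the groups did not overlap, but the difference was 0.10 (SE 0.08). Cox7a2 was lower in each unstable line, at -0.10, -0.15 and -0.10 in pairs 9515, 9938 and 10074, and its second probe set differed by -0.03. Cox8a differed by 0.12 (SE 0.10), with pair differences of 0.15, 0.06 and 0.15. Its probe set at a mean level of 8.43 gave mixed signs, at 0.33, -0.21 and 0.05. Cox6b1 differed by -0.08, Cox5b by -0.06, Cox7a2l by 0.04 and Cox5a by 0.01, and Cox6a1 by 0.00. None passed, at adjusted p = 0.999 or above by limma.

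The isoforms of other tissues were mostly at or below the floor of the array. Cox4i2, the lung isoform of subunit 4, lay at 2.61 to 3.03 over the 6 lines, Cox8b, that of heart and skeletal muscle, at 2.89 or less and Cox8c at 2.34 to 2.79. Values below 4 have no meaningful order. Cox7a1, the heart and skeletal muscle isoform of subunit 7a, was just above, at 4.29, 4.37 and 5.26 in stable and 4.18, 4.88 and 4.96 in unstable lines, and its pair differences had mixed signs. Cox6a2, the heart and skeletal muscle isoform of subunit 6a, measured 4.84, 4.76 and 5.13 in stable and 4.62, 4.55 and 4.40 in unstable lines. Every unstable line was below every stable line. The difference of -0.39 (SE 0.13, 95% interval -0.70 to -0.07) had the smallest unadjusted p of all members (0.0248, and adjusted p = 0.999 by limma). Pair differences were -0.22, -0.21 and -0.73. The test of the CDC20 effect minus the BubR1 effect gave -0.51 (unadjusted p = 0.0445, adjusted p = 1.000 by limma). All values lay near the floor, where signal over background limits the precision. Of the 12 muscle markers 4 were above the floor, with a median difference of 0.058, 3 higher and 1 lower over the group means. Acta1 and Tnnc1 were higher in the unstable line of all 3 pairs, with differences of 0.30 and 0.09. Des had mixed signs, at 0.03, and so had Tnnt2, at -0.55. The part of these markers in the result was not tested.

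Cox6b2, the isoform of subunit 6b known from testis, was the exception to the low levels. It measured 7.71, 5.01 and 7.94 in the stable lines of pairs 9515, 9938 and 10074 and 7.97, 7.30 and 8.51 in the unstable ones. The unstable line was higher in each pair, by 1.20-fold, 4.87-fold and 1.49-fold. The groups overlapped, because the stable line of pair 9938 stood far below all others and the rest lay between 7.30 and 8.51. The difference was 1.04 (SE 0.82, 95% interval -0.95 to 3.03; adjusted p = 0.999 by limma, and 0.417 with the pair as a block). Without the stable line of pair 9938 it was 0.10. A difference above 1 in either direction in pair 9938 was seen for 2.21% of all genes. The 6 testis markers, among them Ddx4 and Prm1, were below 4 in all lines. The gene has 1 probe set, so no other could be compared.

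The promoters of the ubiquitous and the testis isoform of subunit 6b are shown because these genes gave the steady and the most variable readout of 1 subunit. Each line gives the 250 bases before the RefSeq start site in GRCm38.p6, on the gene's strand, which is minus for both. Capitals mark matches to any of 4 motifs searched on both strands. They are CGCATGCG for the core of the NRF1 site, CCGGAAG for ETS factors such as GABP, AAGATGGCG for YY1 and AAGGTCA. The last is a half-site for nuclear receptors such as the estrogen-related receptors. The Cox6b1 window (chr7:30626115-30626364) holds 1 match, to the ETS motif, and the Cox6b2 window (chr7:4753095-4753344) holds none.
Cox6b1: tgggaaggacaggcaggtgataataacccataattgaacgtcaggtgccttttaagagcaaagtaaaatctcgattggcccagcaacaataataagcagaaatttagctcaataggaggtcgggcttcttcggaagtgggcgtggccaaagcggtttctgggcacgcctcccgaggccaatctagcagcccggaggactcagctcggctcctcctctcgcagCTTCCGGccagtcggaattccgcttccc
Cox6b2: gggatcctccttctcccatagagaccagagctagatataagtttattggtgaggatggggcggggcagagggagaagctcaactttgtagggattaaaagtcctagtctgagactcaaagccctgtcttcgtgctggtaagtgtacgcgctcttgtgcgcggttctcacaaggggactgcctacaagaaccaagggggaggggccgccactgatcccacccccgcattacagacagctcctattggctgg

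**Figure D3:**
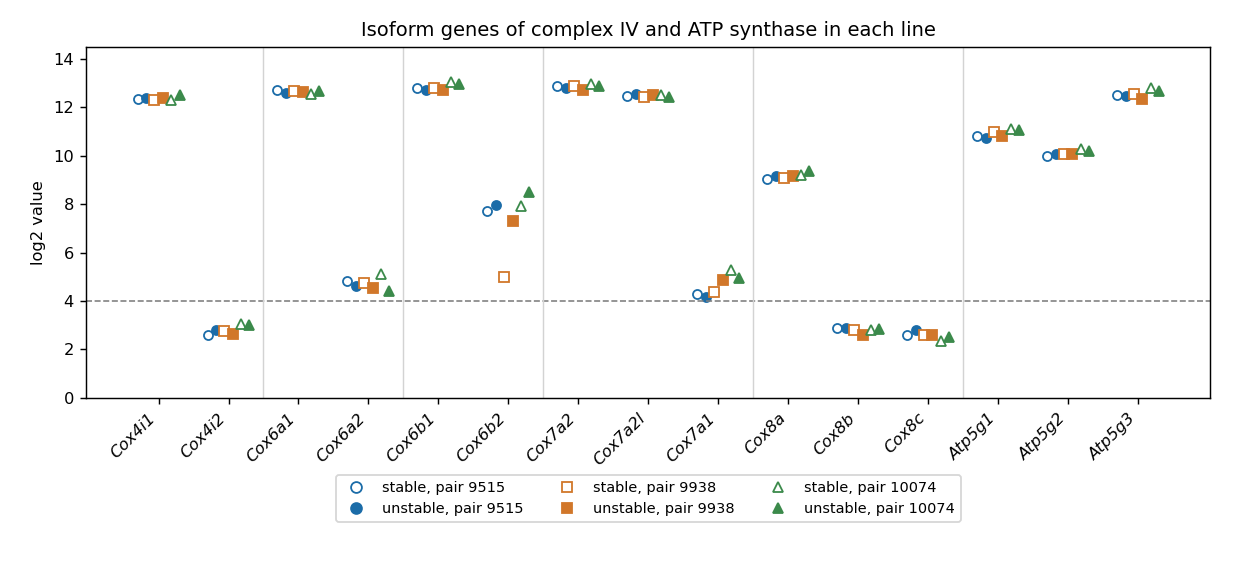
Log2 value (y axis) of isoform genes of complex IV and of the c subunit of ATP synthase (x axis) in each of the 6 lines; open symbols are stable and filled symbols unstable lines, and the dashed line is the floor of 4. Cox4i2, Cox8b and Cox8c lie below the floor in all lines, and Cox6b2 in the stable line of pair 9938 is at 5.01. Probe sets differ in affinity, so levels are not compared between genes.

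The BubR1 allele was also compared alone, as 2 H/H against 2 +/+ lines. Of the 75 subunit genes 0 passed by limma, where 0% of all genes passed, and 0 had an unadjusted p under 0.05, where 3.15% of all genes had. Their median difference was -0.011, beside -0.001 for all genes. The CDC20 effect minus the BubR1 effect passed for 0 of the 75 and for 0% of all genes (smallest adjusted p among members = 1.000 by limma), and Cox6a2 was the 1 member with an unadjusted p under 0.05, beside 1.59% of all genes. That test has 1 CDC20 line per group, which is assumed to vary like the BubR1 lines. Both comparisons share their BubR1 lines with the main one.

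Members also differed between pairs. In 37 of the 75 subunit genes, 49.3%, both lines of pair 10074 were above all 4 BubR1 lines, where 14.9% of all genes tested were. In 8 of the 75, both were below the other 4, where 14.4% of all genes were. With a mean level of at least 10, the first count was 32 of 62 members, 51.6%, beside 18.8% of such genes. By complex, 11 of 17 members of complex V were above, 18 of 33 of complex I, 3 of 8 of complex III, 1 of 4 of complex II and 4 of 13 of complex IV. The count above, over all members, was 34, 40 and 38 with each gene's probe sets averaged, after a further quantile normalization and after centring the arrays. The count below was 4, 8 and 8 in the same order, where 13.2%, 14.9% and 13.4% of all genes were.

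Ndufa2, an accessory subunit of complex I, measured 11.18 and 11.14 in pair 9515, 10.98 and 11.09 in pair 9938 and 11.54 and 11.44 in pair 10074, the stable line first. Atp5d, the delta subunit of the head of ATP synthase, measured 11.98 and 12.01, 12.16 and 12.01, and 12.64 and 12.36 in the same order. Atp5l measured 10.66 and 10.87, 10.86 and 10.92, and 11.23 and 11.17, and Uqcrq 9.57 and 9.64, 9.79 and 9.56, and 10.20 and 10.00. For each of these 4 genes both lines of pair 10074 were the highest, whichever the genotype. Cox5a went the other way by its chosen probe set, with 12.48 and 12.44, 12.47 and 12.45, and 12.12 and 12.20. Its probe set at a mean level of 12.14 did so too. The one at 10.89 did not, with 10.95 and 11.05 in pair 10074 beside 10.77 to 10.91 in the others. The stable line of pair 10074 was the highest of the 6 for 40 of the 75 genes and its unstable partner for 13.

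Measured as the deviation of each gene from its own mean over the 6 lines, the median over the 75 was 0.130 in the stable and 0.078 in the unstable line of pair 10074, and -0.042 to -0.032 in the 4 BubR1 lines. For all genes tested these medians lay between -0.015 and 0.026 in the 6 lines. The pair differs from the others in more than the locus. Macrophage marker signal in each line is given above. Summed fibroblast marker signal was 16.07 and 16.01 in pair 10074 and 15.91 to 15.97 in the others. The part of these markers in the result was not tested. Locus, origin of the lines and array handling cannot be told apart with 1 CDC20 pair. The labels do not say whether a shared number means a shared litter.

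**Figure D4:**
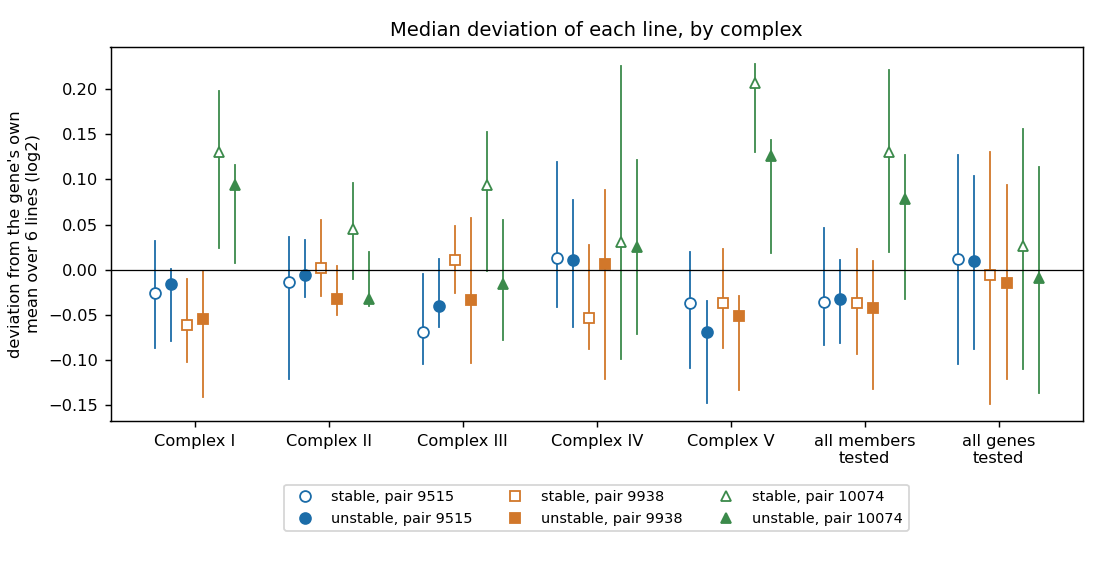
Median deviation of the members of each complex from their own mean over the 6 lines (y axis, log2), per line, with bars from the lower to the upper quartile over genes; open symbols are stable and filled symbols unstable lines. Both lines of pair 10074 lie highest in complexes I and V, most clearly in complex V, where they reach 0.207 and 0.126. In complex IV they lie only slightly above the others, at 0.031 and 0.025 beside 0.013 or less, and the bars overlap.

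The spread of the subunit transcripts was small within each group. The median SD over the 3 stable lines was 0.157 and over the 3 unstable lines 0.109, beside 0.183 and 0.144 for all genes tested. The SD of the 3 pair differences had a median of 0.104, beside 0.168. At a mean level of at least 10, where 82.7% of the subunit genes but 32.4% of all genes lie, these last medians were 0.095 and 0.120. At that level the median SD of the subunit genes was 0.151 over the stable and 0.108 over the unstable lines. For all genes of that level it was 0.143 and 0.112, so within groups the subunit genes spread about as much as genes of like level. By the chosen probe sets, the range over the 6 lines ran from 0.02 for Ndufb5 and 0.06 for Atp5h to 1.07 for Cox7a1 and 3.50 for Cox6b2. The second probe set of Atp5h ran from 11.01 to 11.30.

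The other genes of the pathway were taken from lists of assembly factors, electron carriers, regulators, citric acid cycle enzymes and carriers. None had a member that passed, at adjusted p = 0.999 or above by limma. Assembly factors, which build the complexes but are not part of them, had a median of -0.062. Of 33 tested, 24 were lower and 9 higher over the group means, and 11 were lower and 3 higher in all 3 pairs, which is 33.3% and 9.09% beside the 19.3% and 16.9% of all genes. Pair medians were -0.072, -0.026 and -0.117. Ndufaf5, which modifies a complex I subunit, differed by -0.26 (SE 0.09), the complex IV assembly genes Coa7 and Coa6 by -0.27 (SE 0.11) and -0.18 (SE 0.08). At an unadjusted p under 0.05 there were 2 of the 33, Ndufaf5 and Coa7, where 4.28% of all genes had such a p.

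The regulators of mitochondrial biogenesis had a median of -0.019 over 16 tested genes, 10 lower and 6 higher. Tfam, which packages and transcribes mitochondrial DNA, differed by -0.21 (SE 0.12), with -0.29, -0.14 and -0.21 in pairs 9515, 9938 and 10074. Polg, the mitochondrial DNA polymerase, differed by -0.22 (SE 0.15) and the coactivator gene Pprc1 by -0.14 (SE 0.08). Ppargc1a, the coactivator of tissues rich in mitochondria, lay at 2.62 to 2.87, below the floor in all lines. The 20 citric acid cycle and pyruvate genes had a median of -0.040. Among them Dlat differed by -0.20 (SE 0.10), Ogdh by -0.23 (SE 0.13) and Pcx, pyruvate carboxylase, by 0.11 (SE 0.08). The 15 electron carrier and ubiquinone genes had a median of -0.001, with Coq4 at -0.21, Coq9 at 0.18 and Dhodh, which feeds electrons from pyrimidine synthesis, at -0.26. The 8 carriers and channels had a median of -0.002, with Vdac3 at -0.15, Slc25a13 at -0.08 and the adenine nucleotide carrier gene Slc25a4 at 0.04.

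**Figure D5:**
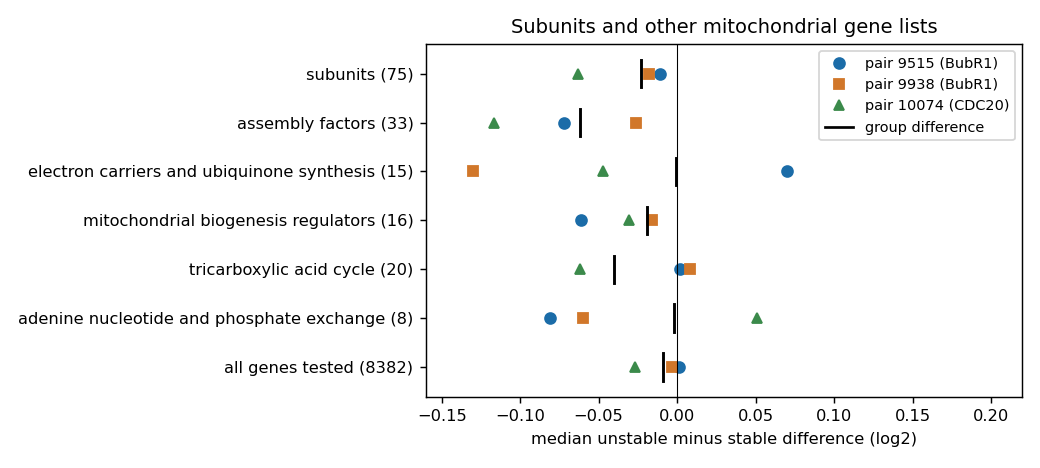
Median unstable minus stable difference (x axis, log2) of the subunit genes, 5 other mitochondrial gene lists and all genes tested (rows, number of genes in brackets); symbols are the 3 pairs and black bars the median of group differences. Pair medians run from -0.130 to 0.070 in all lists, and those of the assembly factors are all below 0.

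Promoter windows were found in the RefSeq table for 64 of the 78 subunit genes, 5 of them with 2 windows. Over the bases before the start, CGCATGCG was in 6 of the 64, 9.38%, beside 3.86% of 6838 tested genes and 1.75% of all 27025 genes with a window. CCGGAAG was in 12, 18.8%, beside 16.7% and 7.83%. AAGGTCA was in 4, 6.25%, beside 3.28% and 4.70%, and AAGATGGCG in 1, 1.56%, beside 1.51% and 0.710%. A match is a description of letters and not a site. The 6 with the NRF1 letters were Atp5g2, Atp5j, Atp5k, Atp5l, Ndufa8 and Cox6a1. By the chosen probe sets, both lines of pair 10074 were above the other 4 in all but Cox6a1. As given above, this was so for 37 of the 75 members. It was so for 11 of 17 members of complex V, which holds 4 of these 6. By its second probe set Cox6a1 had it too, with 11.30 and 11.37 in pair 10074 beside 11.10 to 11.27 in the others. By its second probe set, near the floor, Atp5g2 did not, with 4.58 and 4.52 beside 4.49 to 4.81. A link between the letters and the pair was not tested. The windows of 5 of the 6 are shown, all on the minus strand of GRCm38.p6, with the 4 motifs in capitals. They are Atp5g2 (chr15:102671048-102671297), Atp5k (chr5:108434400-108434649), Atp5l (chr9:44920743-44920992), Ndufa8 (chr2:36049339-36049588) and Cox6a1 (chr5:115348959-115349208). Atp5l and Cox6a1 hold an ETS match as well, and Atp5l one to AAGGTCA. Atp5j has 2 RefSeq windows, 1 of which holds matches to NRF1, ETS and YY1 letters, and is not shown.
Atp5g2: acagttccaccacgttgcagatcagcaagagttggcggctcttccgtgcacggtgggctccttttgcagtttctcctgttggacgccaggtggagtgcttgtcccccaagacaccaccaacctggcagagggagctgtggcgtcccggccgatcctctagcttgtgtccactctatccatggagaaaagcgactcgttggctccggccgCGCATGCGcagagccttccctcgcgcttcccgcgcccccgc
Atp5k: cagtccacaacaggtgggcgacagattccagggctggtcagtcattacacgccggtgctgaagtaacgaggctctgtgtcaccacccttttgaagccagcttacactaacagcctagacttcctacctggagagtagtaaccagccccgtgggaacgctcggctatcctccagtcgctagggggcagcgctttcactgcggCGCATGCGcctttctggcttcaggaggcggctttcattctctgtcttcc
Atp5l: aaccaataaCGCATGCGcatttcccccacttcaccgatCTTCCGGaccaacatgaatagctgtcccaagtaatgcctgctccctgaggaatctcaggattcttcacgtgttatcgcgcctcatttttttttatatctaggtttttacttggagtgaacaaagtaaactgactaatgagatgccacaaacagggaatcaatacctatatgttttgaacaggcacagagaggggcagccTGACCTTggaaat
Ndufa8: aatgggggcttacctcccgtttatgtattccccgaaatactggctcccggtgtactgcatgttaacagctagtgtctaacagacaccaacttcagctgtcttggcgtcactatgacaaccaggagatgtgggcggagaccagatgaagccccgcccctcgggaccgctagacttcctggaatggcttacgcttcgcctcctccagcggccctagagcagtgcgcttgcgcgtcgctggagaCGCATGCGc
Cox6a1: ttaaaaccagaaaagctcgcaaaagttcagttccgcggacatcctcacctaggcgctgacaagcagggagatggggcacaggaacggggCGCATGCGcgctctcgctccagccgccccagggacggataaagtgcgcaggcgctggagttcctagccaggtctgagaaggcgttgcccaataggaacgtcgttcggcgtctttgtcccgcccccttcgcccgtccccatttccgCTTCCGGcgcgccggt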

How the data were processed

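Expression was measured in 6 mouse embryo fibroblast lines, 1 Affymetrix array each. Per the submitters' processing notes, R 2.15.3 and GCRMA 2.28.0 were used. The authors' deposited log2 values (range 0.922 to 14.393) are corrected for background, normalized between arrays and summarized by probe set. Depth does not apply to arrays, whose number limits the precision. Scanner intensities were not analysed here.

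Of 22626 probe sets, 20380 named 1 gene. Each of 12393 genes was represented by the probe set of highest mean, and 8382 reached a log2 value of 4 on 3 arrays or more and were tested. The 78 members had 147 probe sets, and 35 members had 1. Of the chosen ones 9 carry the array suffix x and 11 the suffix s, which mark probes that can match other transcripts, and subunit genes have many processed copies. Of 43 members with several probe sets above 4, 42 had differences within 0.2 of each other and 23 had 1 sign in all.

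Differences were fitted with limma 3.58.1 in R 4.3.3 (lmFit, eBayes, two-sided, Benjamini-Hochberg over all genes tested, threshold 0.05). The BubR1 contrast and the CDC20 effect minus the BubR1 effect came from a model with 4 groups. The deviations of lines with the same number from their group means correlated over genes at 0.812, 0.681 and 0.602, so the numbers in the titles were taken to pair the lines. An exact permutation test of 3 against 3 lines cannot go below 0.1 and was not used. The fit was tested on simulated data.

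Members and gene lists were chosen with earlier results of these data known. Named were, beside the genes with the NRF1 letters, per complex, up to 3 members in each direction by p; the 12 largest differences of 1 sign in all pairs; isoform genes; untested members; the 5 widest ranges of pair differences; complex II; and up to 3 genes by p of each other list. Atp5h, Ndufb5, Ndufa2, Atp5d, Ndufv3, Cox6c and Cox7c, and the markers, were added after their values were seen, and the NRF1 letters were chosen after matches to a longer form had been seen.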

Additional observations from a re-analysis of the deposited data

Results flagged for a closer look

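Ndufa7 was set apart among the named members because its differences had one sign in both BubR1 pairs and the other in the CDC20 pair, each of at least 0.1 on the log2 scale. Its unstable minus stable difference was 0.19 and 0.32 in pairs 9515 and 9938 and -0.16 in pair 10074. The CDC20 effect minus the BubR1 effect was -0.41 and did not pass (unadjusted p = 0.12, adjusted p = 1.000 by limma). Its 5 probe sets had group differences of 0.02 to 0.12, but only the chosen one had this pattern at that size. The probe set next in level, at 9.98, gave 0.00, -0.05 and 0.14 in pairs 9515, 9938 and 10074. The one at 8.49 gave 0.03, 0.38 and -0.18. Those at 9.39 and 8.62 gave -0.03, 0.09 and 0.01, and 0.16, -0.00 and 0.03.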

How the results depend on the processing

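No member passed in any of the 3 comparisons under the alternatives run: the pair number as a replicate block, no filter, a floor of 6, averaging each gene's probe sets, quantile normalization, an intensity trend with a robust prior and leaving out lines (the count was 0 to 0), and in the main comparison also leaving out pairs. The block changed no call.

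The medians over members are small and turned on single lines. Leaving out 1 line at a time, the median over all members was -0.059 to 0.014, that of complex I -0.082 to 0.018 and that of complex V -0.115 to 0.016. Those of complexes II, III and IV stayed within the SD of the pair medians. Without pair 10074 the complex V median was -0.013, for which only the BubR1 lines are left. Other scalings and probe set rules moved no median by more than that SD. The count of members with both lines of pair 10074 above the others, an alternative set added after seeing the data, was 37 to 50 without 1 line, where fewer lines loosen the criterion. Of 39 named members tested, 16 changed sign without 1 line, 6 with the mean of probe sets and 1 after quantile normalization. Values under 4 are limited by background.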

Other observations

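A further 7 probe sets carry several symbols, at least 1 of which fits the rule, and were not counted as members. Of these, 5 were above the floor in all lines. Those shared by the 3 Ndufb4 genes differed by -0.03 and -0.02 (mean over the 3 pairs, log2), that of Ndufa11 and Ndufa11b by -0.10, that of Ndufs6 and Ndufs6b by -0.02 and that of Ndufs5 and a pseudogene by 0.07. The last compares with pair differences of -0.04, 0.14 and -0.41 by the probe set that names Ndufs5 alone, against 0.12, -0.03 and 0.13 by the shared one.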
